A study of Homo sapiens with 14 samples.

Results

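FOXA1, FOXA2, FOXA3, HNF4A, HNF4G, HHEX, ONECUT1 and PROX1 are 8 transcription factor genes of the network that turns endoderm into foregut and liver. They were chosen by name, and all 8 were found among the 63677 gene IDs of the bulk RNA-seq tables. Bulk RNA-seq covered 12 libraries of H9, an established human embryonic stem cell (hESC) line. The groups were 2 libraries of undifferentiated hESC kept in mTSER Plus on Matrigel, 3 of endoderm carrying dCAS9-KRAB alone (endoderm control), 3 of endoderm with dCAS9-KRAB and an sgRNA against LTR5, 2 of foregut control and 2 of foregut with the LTR5 sgRNA. Endoderm was made with 100 ng/ml Activin A for 3 days, with 5 μM of the GSK-3 inhibitor CHIR-99021 on the first day and 0.5 μM on the second. Foregut had 3 days of endoderm and then 3 days of foregut culture. dCAS9-KRAB is a Cas9 that does not cut and is joined to a repressor domain, and the LTR5 sgRNA brings it to the long terminal repeats of HERVK, a primate endogenous retrovirus. The labels of the hESC libraries do not mention dCAS9-KRAB, so the step from hESC to endoderm may also hold its effect, and the 2 cannot be told apart. The status field of the foregut labels names other groups than their titles (hESC and endoderm without sgRNA), and the titles were used. A single preparation of H9 gastruloids, grown for 72 h from 800 cells per well with 3 μM CHIR-99021, was measured by single-nucleus RNA-seq and ATAC-seq.

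The FOXA proteins are forkhead factors that bind closed chromatin and prepare it for other factors, and the endoderm needs FOXA2 and FOXA1 to form foregut, liver and pancreas. HNF4A, a nuclear receptor, drives most hepatocyte genes, and HNF4G is its paralog of intestine and kidney. HHEX and PROX1 are homeobox factors that the liver bud needs to form and grow, and ONECUT1 (HNF6) acts in liver and pancreas upstream of their ducts and endocrine cells. FOXA2 is also made outside the gut, in the node, notochord and floor plate.

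Promoters are shown for HNF4A, FOXA3 and FOXA1, whose start sites differed in gastruloid accessibility, as the 250 bases before the RefSeq start, 5′ to 3′ (GRCh38.p14). RefSeq windows matched 5 of the 8 factors (6 windows), and FOXA2, HNF4G and PROX1 had no entry. HNF4A is shown at both of its starts because a gastruloid peak covered only the upstream one. The upstream start (chr20:44355449-44355698, plus strand) lay within a peak of 1069 bases, and the downstream start (chr20:44400989-44401238, plus strand) had none. FOXA3 (chr19:45864076-45864325, plus strand) had a peak of 660 bases at its start, and FOXA1 (chr14:37595250-37595499, minus strand) had none in the window. Capitals mark AGATAA, the letters of a GATA site.
HNF4A upstream start: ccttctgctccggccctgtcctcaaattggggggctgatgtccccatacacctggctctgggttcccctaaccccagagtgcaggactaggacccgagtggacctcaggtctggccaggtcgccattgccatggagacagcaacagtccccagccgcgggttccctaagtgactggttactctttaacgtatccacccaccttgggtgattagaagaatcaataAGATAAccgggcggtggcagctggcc
HNF4A downstream start: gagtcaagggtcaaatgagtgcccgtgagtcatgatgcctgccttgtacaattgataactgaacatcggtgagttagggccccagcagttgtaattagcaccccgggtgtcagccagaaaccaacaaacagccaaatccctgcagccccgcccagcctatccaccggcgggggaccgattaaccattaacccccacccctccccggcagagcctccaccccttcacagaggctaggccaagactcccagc
FOXA3: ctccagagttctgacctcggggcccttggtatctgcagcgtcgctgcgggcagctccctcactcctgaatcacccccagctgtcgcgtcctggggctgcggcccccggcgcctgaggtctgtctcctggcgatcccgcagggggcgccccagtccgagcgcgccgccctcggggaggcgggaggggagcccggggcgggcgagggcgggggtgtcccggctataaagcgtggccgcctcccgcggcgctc
FOXA1: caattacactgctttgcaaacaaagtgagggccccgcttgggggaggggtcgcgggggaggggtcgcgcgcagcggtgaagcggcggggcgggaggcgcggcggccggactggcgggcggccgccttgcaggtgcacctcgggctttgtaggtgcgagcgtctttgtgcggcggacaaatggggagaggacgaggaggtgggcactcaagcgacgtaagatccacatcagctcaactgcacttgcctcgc

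Letter patterns were searched on both strands of these 250 bases. Among the 6 windows of FOXA1, FOXA3, HNF4A (both starts), HHEX and ONECUT1, AGATAA occurred once, on the plus strand 26 bases before the upstream start of HNF4A. The same letters occur in 9.17% of 35116 promoters of the table. The forkhead letters TGTTTAC (2.98% of promoters) and TATTTAC (2.39%), the HNF4 letters CAAAGTCCA (0.325%) and an HNF1 pattern were in none of the 6 windows, which says nothing of the factors' binding. Of 34961 promoter windows of 300 bases, 58.6% overlapped a gastruloid peak. FOXA3, the upstream start of HNF4A and ONECUT1 (a peak of 860 bases) did, and FOXA1, the downstream start of HNF4A and HHEX did not. The nearest peak to the start ended 436 bases inside FOXA1 and 181 bases inside FOXA2, and 324 bases before HHEX. PROX1 and HNF4G had a peak over the start itself. Each factor had a peak in the 1 kb around the start of its gene, as did 75% of 19078 protein-coding genes. Peaks over the whole gene numbered 13 in PROX1, 9 in HNF4A, 6 in HNF4G, 6 in ONECUT1, 3 in FOXA1, 2 in FOXA3, 1 in FOXA2 and 1 in HHEX. In GRCh37, the build of the bulk tables, the genes lie at chr14:38058757-38065264 (FOXA1, ENSG00000129514), chr20:22561636-22566093 (FOXA2, ENSG00000125798), chr19:46367247-46377055 (FOXA3, ENSG00000170608), chr20:42984339-43061485 (HNF4A, ENSG00000101076), chr10:94449712-94455404 (HHEX, ENSG00000152804), chr15:53047250-53083275 (ONECUT1, ENSG00000169856) and chr1:214156524-214214853 (PROX1, ENSG00000117707), with HNF4G (ENSG00000164749) on chromosome 8. The peaks were called on all nuclei together, so they do not say which cells are open.

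Levels are given as CPM, the counts scaled to 1000000 gene reads per library. The libraries held 11583063 to 37152434 gene reads, of which mitochondrial genes took 16.9 and 25.5% in hESC, 8.30 to 14.4% in endoderm and 17.6 to 34.7% in foregut. The foregut libraries had reads in 15005 to 17926 genes and the others in 19678 to 20973, and were deposited later, so stage and library set cannot be told apart. In bulk RNA, fewer cells of a type and less RNA per cell cannot be told apart either. Definitive endoderm markers (8 genes found) summed to 48.8 and 59.4 CPM in hESC, 6293 to 7395 CPM in endoderm and 185 to 263 CPM in foregut, with no marker at 0 in endoderm. Reads in LTR5_Hs and LTR5B integrants together were 23.8 ± 0.98 CPM (SD, n = 3) in endoderm control and 14.9 ± 2.58 (n = 3) with the sgRNA, and 19.8 ± 2.46 (n = 2) and 11.6 ± 2.30 (n = 2) in foregut, and neither pair of groups overlapped. LTR5_Hs alone overlapped in foregut (8.75 and 9.10 CPM in control, 4.43 and 10.9 CPM with the sgRNA). LTR5A, another subfamily, was at 49.7 ± 12.0 CPM in endoderm control and 96.9 ± 11.8 CPM with the sgRNA (SD, n = 3 each). In foregut LTR5A was at 56.0 ± 2.17 CPM in control and 61.2 ± 2.44 CPM with the sgRNA (SD, n = 2 each).

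**Figure D1:**
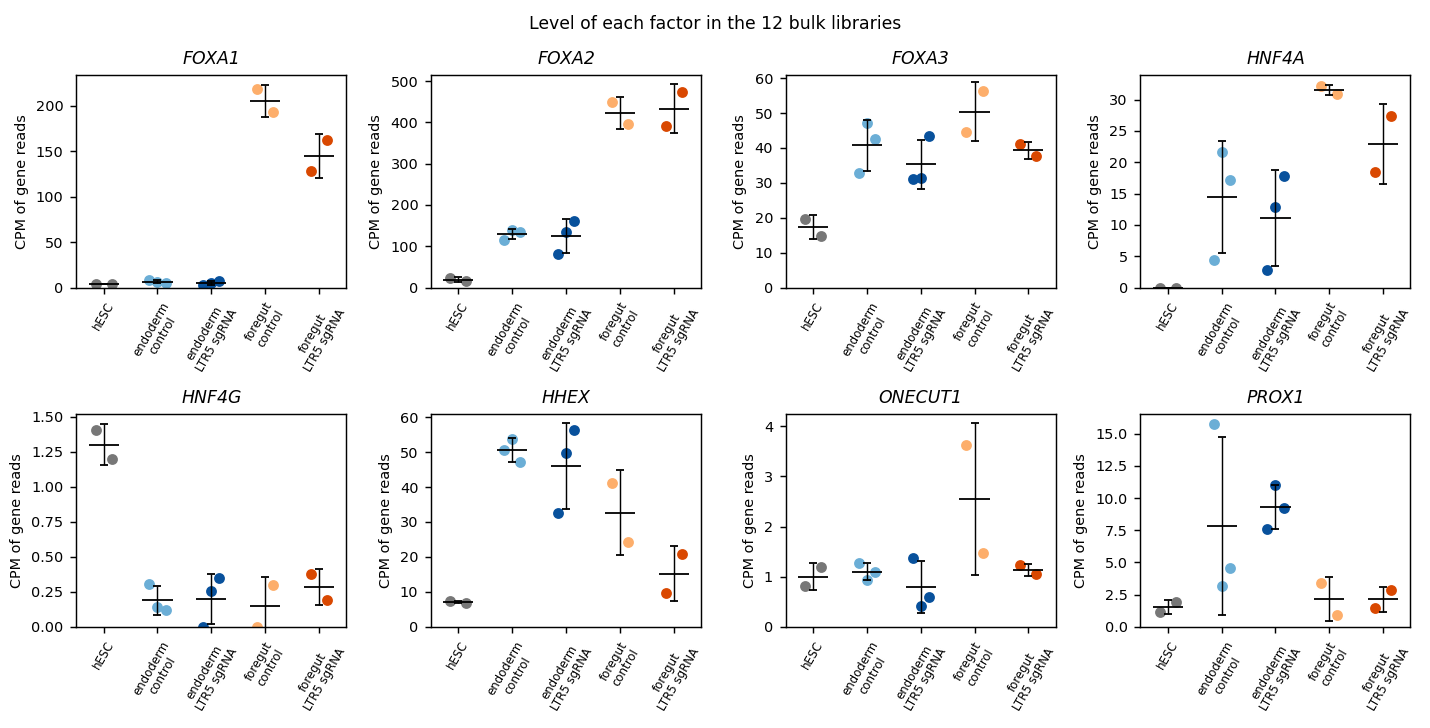
CPM of gene reads of each factor (vertical axis, from 0, own scale per gene) in the 12 bulk libraries. Points are libraries, lines the group means and bars ± 1 SD, cut off at 0; FOXA1 and FOXA2 were highest in foregut, HHEX in endoderm and HNF4G in hESC.

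The first question was which of the factors change from hESC to endoderm. FOXA2, FOXA3, HNF4A, HHEX and PROX1 were higher in endoderm control than in hESC, HNF4G was lower, and FOXA1 and ONECUT1 did not pass the rule of an adjusted p under 0.05 with a fold over 2 (edgeR quasi-likelihood test, Benjamini-Hochberg). Thus 6 of 8 were called, beside 26.0% of the 20818 genes tested, with 5 of them higher (14.2% of all genes) and 1 lower (11.8%). All 8 passed the filter on low counts in every comparison. Against hESC, HNF4A did so only through the endoderm or foregut libraries, so its place in these counts follows in part from the filter. The median log2 fold change of the 8 was 1.85, with HNF4A as fitted or at its bound, against 0.04 over all genes tested.

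FOXA2 stood at 23.6 and 15.2 CPM in hESC and at 115.8, 139.6 and 133.7 CPM in endoderm control. Every endoderm library was above both hESC libraries, and the log2 fold change was 2.80 ± 0.25 (SE, adjusted p = 4.3e-07 by edgeR). HHEX rose from 7.39 and 6.87 CPM to 50.6, 53.9 and 47.1 CPM, which edgeR put at 2.89 ± 0.22 on the log2 scale (SE, adjusted p = 7.7e-08). The 3 endoderm libraries lay close together, with an SD of 3.36 CPM. FOXA3 rose from 19.8 and 14.9 CPM to 32.7, 47.1 and 42.6 CPM (1.30 ± 0.24 SE on the log2 scale, adjusted p = 0.00050 by edgeR), again without overlap.

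HNF4A had no read in either hESC library. It stood at 4.42, 21.6 and 17.2 CPM in endoderm control, at least 111-fold higher than the floor of 3 counts per hESC library, and was called (adjusted p = 2.6e-06 by edgeR). Replicate 1 held the low value. The same library held the highest PROX1, at 15.8 CPM against 3.16 and 4.58 CPM in replicates 2 and 3 and 1.15 and 1.95 CPM in hESC. PROX1 was called (log2 fold change 2.41 ± 0.56 SE, adjusted p = 0.0027 by edgeR), with 1.41 (adjusted p = 0.00031) without endoderm control replicate 1. It was no longer called without hESC replicate 1 (2.13, adjusted p = 0.12) or replicate 2 (2.75, adjusted p = 0.064). The 12 mesoderm markers summed to 412 CPM in endoderm control replicate 1 and to 168 and 231 CPM in the other two, with 1, 2 and 2 of them at 0, and their part in the PROX1 and HNF4A values was not tested. Mesoderm markers as a list were called higher for 7 of 11 tested and lower for 0 against hESC (median log2 fold change 4.20, or 3.72 with genes at 0 in hESC at their bound).

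HNF4G was the factor that fell. It stood at 1.40 and 1.20 CPM in hESC and at 0.305, 0.139 and 0.122 CPM in endoderm control, with no overlap (log2 fold change -2.67 ± 0.57 SE, adjusted p = 0.0016 by edgeR). These are low levels, and the call was lost with all 12 libraries in 1 fit, at a like log2 fold change and a larger error (-2.71 ± 1.32 SE, adjusted p = 0.16). FOXA1 had 3.91 and 3.81 CPM in hESC and 7.88, 6.69 and 5.01 CPM in endoderm, without overlap, and had a log2 fold change of 0.82 ± 0.28 (SE) with an adjusted p of 0.032 by edgeR and a fold under 2. ONECUT1 had 0.807 and 1.20 CPM in hESC and 0.929 to 1.27 CPM in endoderm, so the groups overlapped (adjusted p = 0.72 by edgeR).

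**Figure D2:**
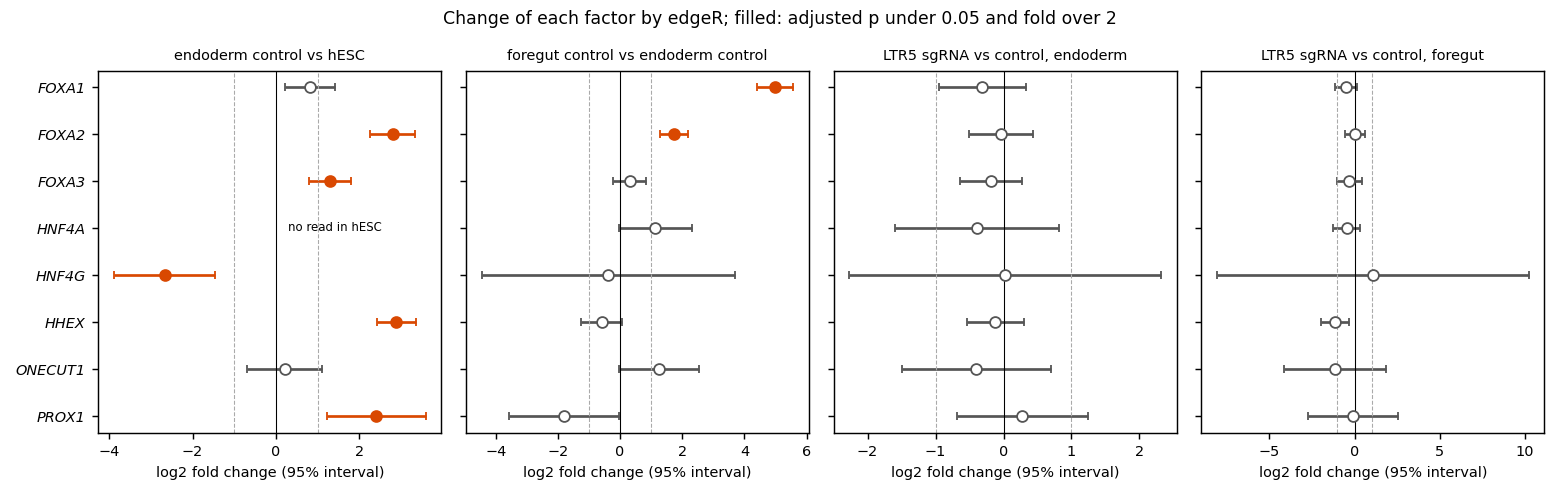
Log2 fold change of each factor (horizontal axis, own scale per panel) with its 95% interval from edgeR in 4 comparisons; filled points passed an adjusted p under 0.05 and a fold over 2, and dashed lines mark a fold of 2. FOXA1 and FOXA2 were the factors called between foregut and endoderm, and none was called with the LTR5 sgRNA; HNF4A has no point against hESC, where it had no read.

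The second question was what the 3 further days of foregut culture change. FOXA1 and FOXA2 were higher in foregut control than in endoderm control, and the other 6 factors did not pass. This is 2 of 8, beside 29.0% of the 21466 genes tested, and both were higher, beside 14.1%. The median log2 fold change of the 8 was 0.72 against -0.09 over all genes.

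FOXA1 was at 217.9 and 192.8 CPM in foregut control, far above its 5.01 to 7.88 CPM in endoderm control, 31.8-fold higher by edgeR (4.99 ± 0.26 SE on the log2 scale, adjusted p = 4.9e-06). FOXA2 was at 449.9 and 395 CPM, above the 115.8 to 139.6 CPM of endoderm control, 3.29-fold higher (1.72 ± 0.20 SE on the log2 scale, adjusted p = 0.00025 by edgeR). Both calls held in each of the 14 settings tried, those without 1 library and without mitochondrial genes included. FOXA1 thus made its main step after endoderm, whereas FOXA2 had a called step at each stage. HNF4A was at 32.1 and 31 CPM in foregut control, above every endoderm control library, with a log2 fold change of 1.13 ± 0.52 (SE) and an adjusted p of 0.12 by edgeR. FOXA3 had 44.5 and 56.3 CPM in foregut against 32.7 to 47.1 CPM in endoderm, so these groups overlapped (adjusted p = 0.32 by edgeR).

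HHEX was lower in both foregut control libraries, at 41.3 and 24.1 CPM, than in the 3 of endoderm control at 47.1 to 53.9 CPM. Its log2 fold change of -0.60 ± 0.29 (SE) did not pass (adjusted p = 0.14 by edgeR), and without foregut control replicate 1 it did (-1.15, adjusted p = 0.0048). PROX1 was at 3.37 and 0.942 CPM in foregut control, and the higher value lay above the lowest endoderm library (log2 fold change -1.81 ± 0.78 SE, adjusted p = 0.11 by edgeR). It was at -3.12 without foregut control replicate 1, and it passed with all 12 libraries in 1 fit (-1.80, adjusted p = 0.049 by edgeR). ONECUT1 was at 3.62 and 1.48 CPM, both above endoderm control, which gave 1.25 ± 0.57 SE on the log2 scale (adjusted p = 0.12 by edgeR) and 1.87 (adjusted p = 0.0087) without foregut control replicate 2. HNF4G was at 0 and 0.296 CPM, near the floor of 3 counts (0.0807 to 0.0919 CPM) and not told apart from endoderm (adjusted p = 0.88 by edgeR).

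Set against hESC, which the endoderm comparison shares, foregut control had 5 of 8 factors called, all higher, beside 32.7% of 21191 genes tested and 16.0% higher, with a median of 1.92 over the 8 and -0.0046 over all genes. The log2 fold changes were 5.78 for FOXA1, 4.48 for FOXA2, 1.57 for FOXA3 and 2.26 for HHEX. HNF4A was at least 242-fold higher. Without foregut control replicate 2, which leaves 1 foregut library, PROX1 was at 1.30 and ONECUT1 at 2.02. PROX1 was at -0.72 without foregut control replicate 1. HNF4G was at -2.14 without foregut control replicate 1, and without replicate 2 the library left had no read.

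Levels can be ordered per gene across the 5 groups. FOXA1 ran from hESC through the 2 endoderm groups, which overlapped, to foregut with the sgRNA (145 ± 24.1 CPM SD, n = 2) and foregut control (205 ± 17.8 SD, n = 2). FOXA2 ran from hESC through endoderm with the sgRNA (125 ± 40.9 SD, n = 3) and control (129.7 ± 12.4 SD, n = 3) to foregut control (422 ± 38.8 SD, n = 2) and foregut with the sgRNA (433 ± 59.3 SD, n = 2), and neighbours within a stage differed by less than their spread. HHEX ran from hESC (7.13 ± 0.37 SD, n = 2) through foregut with the sgRNA (15.3 ± 7.83 SD, n = 2) and foregut control (32.7 ± 12.1 SD, n = 2) to the endoderm groups. PROX1 was highest in endoderm with the sgRNA (9.29 ± 1.69 SD, n = 3) and endoderm control (7.83 ± 6.90 SD, n = 3), which overlapped.

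The balance of the FOXA family shifted with stage. Divided by exon length, FOXA2 and FOXA3 were alike in hESC, at 7.14 ± 2.17 and 8.15 ± 1.62 CPM per kb (SD, n = 2), with FOXA1 at 0.875 ± 0.015 CPM per kb. FOXA3 made 49.3 and 52% of the summed FOXA level in hESC, 22.6 to 32.5% in endoderm and 7.73 to 12.3% in foregut. FOXA2 made 41.6 and 46% in hESC and 65.9 to 76.2% in every library after it. FOXA1 made 4.70 and 6.41% in hESC, 1.61 to 2.99% in endoderm and 20.3 and 20.9% in foregut control. With the LTR5 sgRNA, FOXA1 made 15.1 and 16% of the foregut FOXA level, below both control libraries, and the summed level was 191.95 and 228.9 CPM per kb against 215.5 and 235.8 in control, which overlapped.

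**Figure D3:**
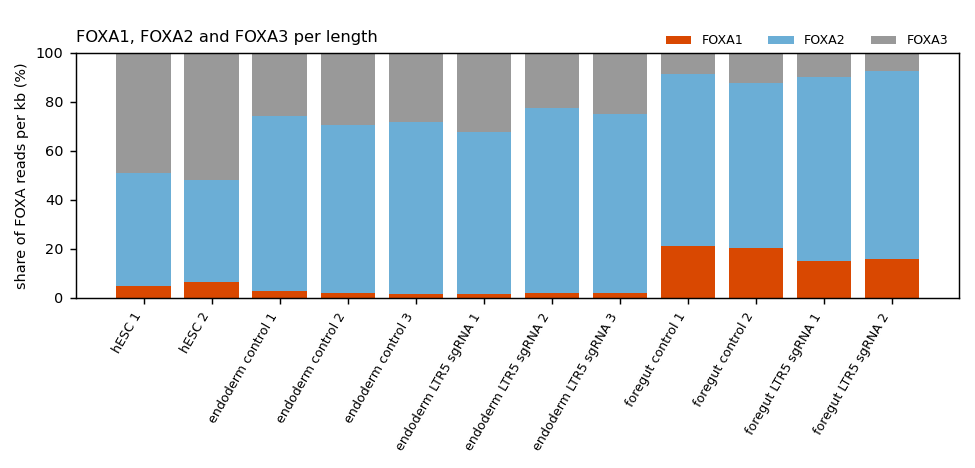
Share of FOXA1, FOXA2 and FOXA3 in their summed CPM per kb of exon (vertical axis, percent) in each bulk library. FOXA3 held about as much as FOXA2 in hESC, FOXA2 led in endoderm and foregut, and FOXA1 passed 15% in the 4 foregut libraries only.

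Genes next to the factors were read in the same tables (GRCh37). FOXA2 is at chr20:22561636-22566093 on the minus strand, and LINC00261, a long noncoding RNA, lies downstream of it on the same strand at chr20:22528301-22559280. LINC00261 was at 5.24 ± 0.64 CPM in hESC (SD, n = 2), 52.7 ± 7.42 in endoderm control (n = 3) and 503 ± 27.5 in foregut control (n = 2). It was at 43.7 ± 16.7 in endoderm (n = 3) and 464 ± 62.9 in foregut (n = 2) with the sgRNA. FOXA1 (chr14:38058757-38065264, minus strand) overlaps the start of TTC6 on the other strand. TTC6 was at 0.13 CPM in hESC, 0.15 in endoderm control and 5.09 ± 1.03 (SD, n = 2) in foregut control. The libraries were stranded, but whether strand was used in counting is not given in the sources used here, so reads of the overlap cannot be told apart. PROX1-AS1, antisense to PROX1, stayed under 1 CPM as a mean in each group, and HNF4A-AS1 had no read in any.

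The other genes of the network were counted by list. Of 14 further regulators found, 9 could be tested between endoderm and hESC, of which 5 were higher and 2 lower (median log2 fold change 6.62). GATA6, GATA4 and SOX17, which specify endoderm, had no read in hESC and stood at 366 ± 64.4, 239 ± 43.2 and 241 ± 42.6 CPM (SD, n = 3) in endoderm control. MNX1, a homeobox factor of the pancreatic bud, went from 0.044 to 7.52 CPM. Between foregut and endoderm control, 5 of 10 regulators tested were higher and 3 lower (median 1.40). PDX1, the master factor of the pancreas, rose from 0.0155 to 25.7 CPM and MNX1 to 60 CPM, while SOX17 fell to 24 and TBX3 from 30.7 to 2.57 CPM. All 8 definitive endoderm markers tested were higher in endoderm than in hESC (median 10.43, or 9.53 with genes at 0 at their bound), and all 8 were lower in foregut than in endoderm (median -5.45).

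Liver genes are the textbook targets of FOXA and HNF4A. Of the 19 listed, 12 could be tested between foregut and endoderm control. Of these, 11 were higher in foregut and 0 lower (median 9.54, or 8.31 with the 6 genes at 0 at their bound). Those 6, and FGG at up to 0.0508 CPM in endoderm control, passed the low-count filter only through foregut libraries. The count and the median thus follow in part from the filter. The rest of the list, ALB, APOH, AHSG, TAT, PCK1, G6PC and CYP7A1, had no read in foregut control. TTR, a carrier of thyroid hormone and retinol, was at 0 in all endoderm control libraries and at 1751 ± 423 CPM (SD, n = 2) in foregut control. SERPINA1, a protease inhibitor of plasma, was at 0 and then 34.4 ± 13.3 CPM (SD, n = 2). AFP, the fetal albumin-like protein, was at 0 in endoderm and at 5.06 and 176.4 CPM in the 2 foregut control libraries. FGB, a chain of fibrinogen, was at 18.3 and 83.8 CPM there. In endoderm against hESC, 1 liver gene was higher and 3 lower of 8 tested, and the median changed sign with the bound (-0.77 as fitted, 0.19 with the bound). Pluripotency markers were lower for 5 and higher for 1 of 11 in endoderm against hESC, and lower for 8 and higher for 1 of 11 in foregut against endoderm. Markers of other fates were mixed: neuroectoderm had 2 higher and 3 lower of 8 in endoderm against hESC and 5 lower of 8 in foregut against endoderm, mesoderm had 1 higher and 6 lower of 12, and hindgut 1 higher and 1 lower of 3 in that last comparison, where 3018 of all 21466 genes tested were higher and 3214 lower.

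The third question was whether silencing LTR5 changes these factors. None of the 8 was called in endoderm, where the background was 0.0343% (7 of 20407 genes), or in foregut, where it was 0.165% (33 of 20044 genes). At an unadjusted p under 0.05, 0 of the 8 passed in endoderm beside 5.18% of genes (1057), and 1 passed in foregut beside 3.49% (699). DESeq2 and limma voom also called none. The median log2 fold change of the 8 was -0.15 in endoderm and -0.39 in foregut, against -0.02 and -0.06 over all genes tested.

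In endoderm the sgRNA libraries lay among the controls for most factors. FOXA2 was at 80.4, 134.8 and 160.5 CPM with the sgRNA, on both sides of its 115.8 to 139.6 CPM in control (log2 fold change -0.04, 95% interval -0.51 to 0.43). HHEX was at 32.5, 49.6 and 56.2 CPM (-0.12, interval -0.54 to 0.30), and FOXA3 at 31, 31.5 and 43.3 CPM (-0.19, interval -0.64 to 0.27). The intervals of these factors leave out a fold of 2, and that of FOXA1 (3.24, 5.30 and 7.17 CPM) reaches from -0.95 to 0.33. HNF4A was at 2.76, 12.9 and 17.8 CPM, with an interval of -1.59 to 0.81, and PROX1 at 7.62, 11 and 9.24 CPM, with an interval of -0.69 to 1.24, so a fold of 2 was not excluded for either. sgRNA replicate 1 was lowest for FOXA1, FOXA2, FOXA3, HNF4A and HHEX. It also had the highest mesoderm sum of its group, 360 CPM against 307 and 204 CPM, with 1, 1 and 2 markers at 0, and whether this bears on the factors was not tested.

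In foregut HHEX had the lowest p of the 8. It was at 9.73 and 20.8 CPM with the sgRNA and at 41.3 and 24.1 CPM in control, without overlap. The log2 fold change was -1.15 ± 0.42 (SE), the factor that passed before adjustment, with an adjusted p of 0.80 by edgeR, and it ranged from -0.61 without foregut control replicate 1 to -1.57 without sgRNA replicate 2. The test of the difference between foregut and endoderm gave -1.05 ± 0.45 (SE), with an adjusted p of 0.57 by edgeR, and it called none of the 8 beside 0.194% of 22708 genes (DESeq2 and voom also none). HHEX passed there before adjustment, as did 1870 genes. FOXA1 was lower in both sgRNA libraries, at 127.8 and 162 CPM against 217.9 and 192.8 CPM (-0.50, interval -1.12 to 0.12, adjusted p = 1.0 by edgeR). FOXA3 was at 41.1 and 37.6 CPM against 44.5 and 56.3 CPM (-0.31, interval -1.03 to 0.41), again lower in both sgRNA libraries, as was HNF4A. HNF4A was at 18.4 and 27.4 CPM against 32.1 and 31 CPM (-0.46, interval -1.26 to 0.33). FOXA2 was at 390.6 and 474 CPM, around its controls (0.04, interval -0.53 to 0.62). ONECUT1, PROX1 and HNF4G were too low in foregut for a useful interval, of which the narrowest reached from -2.73 to 2.57, for PROX1.

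Among the regulators, PDX1 was the one called in foregut with the sgRNA, at 5.46 ± 4.30 CPM against 25.7 ± 0.29 CPM (SD, n = 2 each, log2 fold change -2.30, adjusted p = 0.0022 by edgeR). AFP and FGB were the 2 of 12 liver genes called, both lower, while TTR was at 1683 ± 54.9 CPM (SD, n = 2). AFP was at 0 and 0.0314 CPM with the sgRNA against 5.06 and 176.4 CPM in control. FGB was at 4.90 and 7.98 CPM against 18.3 and 83.8 CPM. The control libraries of both genes were thus far apart, and this test rests on a spread shared over genes. CDX2, a hindgut factor, was also lower (log2 fold change -2.77, adjusted p = 0.00099 by edgeR). In endoderm with the sgRNA, 0 genes were called among the regulator (8 tested), liver (6), definitive endoderm (8), pluripotency (11), mesoderm (11), neuroectoderm (8) and hindgut (4) lists.

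No factor has an LTR5_Hs or LTR5B integrant near it. The nearest to a start lies 522 kb from FOXA1, 904 kb from FOXA3 and 1108 kb from FOXA2, and 2384 to 6042 kb from the other 5, so 0 of 8 have one within 500 kb. Over 20175 protein-coding genes, 35.2% have one within 500 kb and 5.9% within 50 kb.

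The pattern of each factor was also set beside 10427 protein-coding genes whose mean reached 5 CPM, as Pearson's r of log2(CPM + 1) over the 12 libraries. These values follow the steps between stages and are a description. FOXA1 was most like LGALS8 (r = 0.9933) and RFX6 (0.9921), and 361 genes had an r over 0.95 with it. FOXA2 was most like HEBP2 (0.9839) and JUND (0.9838), with 45 such genes, and HNF4A most like SLC40A1 (0.9643) and PPFIBP2 (0.9629), with 4. FOXA3 was nearest to AGPAT4 (0.9568) and RAB17 (0.9526), HHEX to KLF6 (0.9585) and ATF3 (0.9571), and PROX1 to ERO1A (0.9615) and LIN7A (0.9397). ONECUT1 was nearest to AFP (0.8425) and FGB (0.7638). Among the factors, FOXA2 and HNF4A had an r of 0.9358, and FOXA1 and HHEX one of -0.1067.

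In gastruloids, 5 of the 8 factors were in the table of nuclei, and FOXA3, HNF4A and HHEX were not analysed here. Of 3646 nuclei, 3422 were kept (median 16302 UMIs), and 3197 were thinned to 5000 UMIs each to compare shares. Intervals are exact binomial or Poisson intervals at 95% and cover counting error only, since there was 1 preparation. PROX1 had a UMI in 15.5% of thinned nuclei and FOXA2 in 12%, followed by HNF4G in 4.47%, FOXA1 in 1.63% and ONECUT1 in 1.63%. Without thinning these shares were 35.6, 22.7, 11, 5.47 and 4.73%.

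FOXA2 was most frequent in 2 of 10 clusters, which were built without the factors. In cluster 0 (495 nuclei, led by PKD1L1, WDR49, DAND5, BICC1 and ARMC3), 56.9% of nuclei had a FOXA2 UMI (52.3 to 61.4%), at 197.7 CPM. This cluster is axial mesoderm-like, with CHRD among its 10 leading genes. TBXT, CHRD, NOTO, SHH, NOG and FOXJ1 summed to 1643 CPM there. Cluster 9 had 513 CPM of these axial markers, and the others 43.4 to 112 CPM. In cluster 9 (33 nuclei, led by XACT, DCDC2, ADAMTS18, CADPS and KLHL14), 48.5% had a FOXA2 UMI (30.8 to 66.5%), at 132 CPM. In the other 8 clusters the share was 2.18 to 8.72%, at 5.09 to 21.6 CPM. Cluster 4 was the highest of these, at 21.6 CPM (18.4 to 25.2), followed by cluster 8 at 12.8 CPM (8.41 to 18.6). Clusters 1, 2, 3, 5, 6 and 7 lay at 5.09 to 7.16 CPM. Free RNA was not measured, and its part in these low shares was not tested. Median depth before thinning was 20949 UMIs in cluster 0, 23084 in cluster 9 and 6717 to 23793 in the rest. Mitochondrial UMIs had a median of 17.4 and 19.1% in clusters 0 and 9 and of 14.9 to 15.8% in the rest. Among nuclei with at most 15% mitochondrial UMIs the FOXA2 share over all clusters was 7.90% in place of 12%.

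FOXA1 was most frequent in the smaller of these clusters. It had a UMI in 33.3% of cluster 9 (18 to 51.8%), in 6.37% of cluster 0 (4.34 to 8.97%) and in 0 to 1.09% elsewhere. In cluster 3, 0 of 431 thinned nuclei had one, which allows a share of up to 0.696% by the limit of 3 counts and 0.852% by the exact interval, and 4 UMIs were there before thinning. PROX1 was broader, with 51.5% in cluster 9 (33.5 to 69.2%), 32.3% in cluster 0 (28.1 to 36.7%) and 6.11 to 20.4% in the others. EPCAM and CER1, the 2 endoderm markers in the table, summed to 537 CPM in cluster 9, 191 CPM in cluster 0 and 10.7 to 59 CPM elsewhere, and with under 3 markers cluster 9 stays unnamed. Over all nuclei EPCAM had 3356 UMIs and CER1 159, so the sum is mostly EPCAM. CER1 was found in 0.260% of nuclei with FOXA2 (0.00659 to 1.44%) and 1.21% of those without (0.84 to 1.7%), which overlap. It was in 0 of the 52 with FOXA1 (up to 6.85%) and 1.11% of those without. CER1 thus showed no clear direction, unlike EPCAM. HNF4G and ONECUT1 showed no cluster with a share above 6.53% and 2.85%. Scrublet called 70 nuclei doublets (2.05%), and without them FOXA2 was in 57.5% of cluster 0 and 48.5% of cluster 9.

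**Figure D4:**
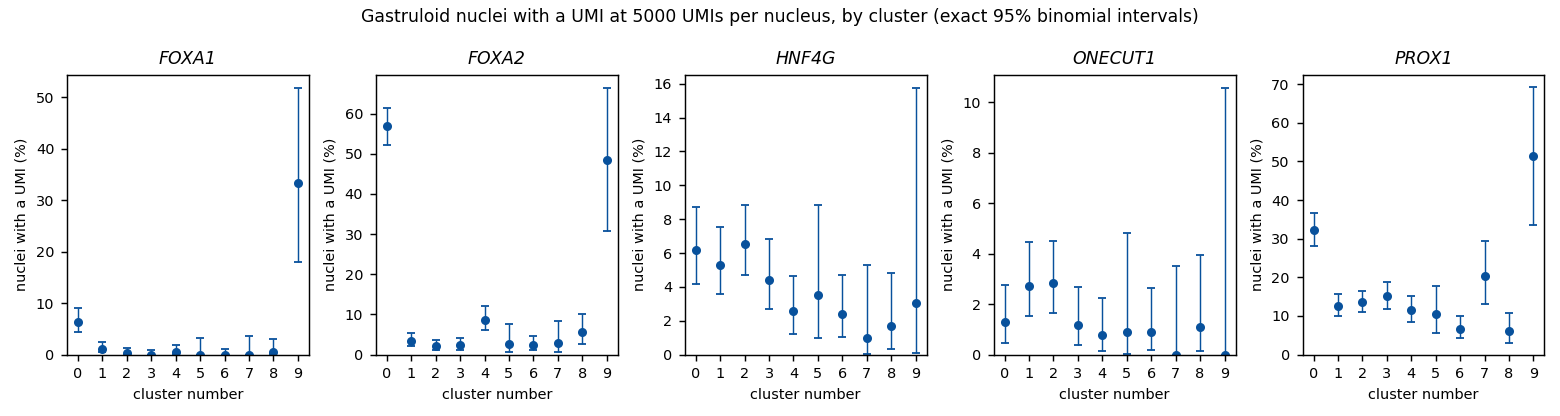
Share of thinned gastruloid nuclei with a UMI of each factor (vertical axis, percent) by cluster number, with exact 95% binomial intervals. FOXA2 and PROX1 stand highest in clusters 0 and 9 and FOXA1 in cluster 9, while HNF4G and ONECUT1 are low in all.

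Single nuclei were then split by whether they had a FOXA2 UMI. Of 384 thinned nuclei with a FOXA2 UMI, 68.8% had one of CHRD, 55.7% of NOTO, 54.4% of TBXT and 38.5% of SHH, the signal of the notochord. Of the 2813 without one, 10.1, 8.89, 14.9 and 3.73% did. HES7, a presomitic gene, was also more frequent with FOXA2, at 52.3% against 22.9%, as was EPCAM, an epithelial gene, at 50.3% against 11.1%. The other presomitic genes measured were less frequent with FOXA2. TBX6 was at 9.4 against 12.4%, MSGN1 at 2.08 against 4.55%, RIPPLY1 at 12.5 against 19.2% and PCDH8 at 3.4 against 8.5%. PAX3 and MEOX1, somite genes, were less frequent too, at 23.2 and 17.2% of nuclei with FOXA2 and 55.3 and 48.2% of those without. PROX1 was found in 30.7% of nuclei with FOXA2 (26.2 to 35.6%) and 13.4% of those without (12.2 to 14.7%). FOXA1 was found in 6.25% of them (4.05 to 9.16%) and 0.995% of the rest (0.662 to 1.44%). HNF4G was found in 5.47% (3.42 to 8.24%) and 4.34% (3.61 to 5.16%), which overlap. Nuclei are not replicates, so these shares describe 1 preparation and carry no test.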

How the data were processed

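The 8 factors and the gene lists were chosen with earlier results of these data known. The authors mapped bulk reads to hg19 with HISAT2 and counted uniquely mapped reads of genes and TEs with featureCounts, and the deposited files hold their unscaled read counts for genes and TE integrants. For gastruloids the authors ran Cell Ranger (the ARC pipeline) on hg38, and deposited UMI counts of each nucleus with a list of peak positions. Gene IDs were matched to GENCODE (55665 of 63677 matched), and promoters came from RefSeq.

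Counts were fitted with edgeR 4.0.16 in R 4.3.3 (quasi-likelihood, TMM, genes with at least 3 reads in 1 library, only the groups compared), and p-values were adjusted over all genes tested by Benjamini-Hochberg. A call needed an adjusted p under 0.05 and a fold over 2. Tests are 2-sided and 95% intervals of fold changes use the test's own degrees of freedom. DESeq2 1.42.0 and limma 3.58.1 (voom) were alternatives, beside other scalings, filters, a block of replicate numbers and each library left out. The fit was tested on simulated data. The labels do not say that replicates were separate cultures, so p-values measure the spread between these samples, which may be technical. In the sgRNA test of foregut the fitted spread was shared over genes, so a gene's own spread between libraries hardly enters its p-value or interval. A count of 0 was given a floor of 3 counts per library.

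Nuclei needed at least 1000 UMIs, 200 genes and at most 25% mitochondrial UMIs, and were clustered with scanpy 1.11.5 on 2000 variable genes, factors left out, with 30 components at a resolution of 0.5. All nuclei come from 1 library, and doublets were called with scrublet and kept. Leading genes were ranked by fold with 5 CPM added. Other genes named are those of the lists with the largest folds among called genes whose mean reached 1 CPM, genes that overlap a factor or start within 20 kb of one, and the 2 genes most like each factor. The lists were regulators, liver genes, definitive endoderm, pluripotency, mesoderm, neuroectoderm and hindgut markers. Axial mesoderm, somite and endoderm markers served for nuclei. No protein sequences were compared.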

Additional observations from a re-analysis of the deposited data

How the results depend on the processing

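The number of factors called was within 1.5 times its main value for endoderm against hESC under every alternative run (5 to 6 without 1 library). For foregut against hESC it was 5 to 8 without 1 library. For foregut against endoderm it was 2 to 4 without 1 library, and 4 with the replicate block, where HNF4A (1.67, adjusted p = 6.3e-05 by edgeR) and PROX1 (-1.96, adjusted p = 0.0013) were also called. The cause was not tested. With an unadjusted p and a fold over 2, HHEX passed in foregut with the sgRNA and in the difference between foregut and endoderm. At an unadjusted p under 0.05 with no limit on the fold, 3.49% of genes (699) passed in foregut and 1870 of 22708 for the difference. The replicate block changed no other count of factors called. Same-numbered libraries shared a number only, with correlations of deviations from -0.209 to 0.179. With the numbers crossed in foregut, an alternative chosen after seeing the data, 74 genes were called with the sgRNA against 19 with the block and 33 without, and 0 factors in each. Over all alternatives the genes called ran from 1 to 186 in endoderm with the sgRNA (7 in the main test), from 1 to 527 in foregut (33) and from 0 to 805 for the difference (44), counting rules with an adjusted p. For the difference it was 16 with the block.

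Values near 0 changed sign under the sgRNA. HNF4G in endoderm was -0.44 with voom and -0.072 with the block, and PROX1 in foregut was 0.32 with voom, 0.20 with the block and 0.20 with crossed numbers. Without 1 library, the log2 fold changes in endoderm with the sgRNA ranged from -0.24 to 0.16 for FOXA2, -0.89 to 0.056 for HNF4A, -0.49 to 0.59 for HNF4G, -0.27 to 0.041 for HHEX, -1.18 to 0.0037 for ONECUT1 and -0.11 to 1.28 for PROX1. In foregut they ranged from -0.12 to 0.23 for FOXA2 and -0.75 to 1.24 for PROX1. For the difference they ranged from -0.37 to 0.073 for FOXA1, -0.11 to 0.30 for FOXA2, -0.35 to 0.076 for FOXA3, -0.48 to 0.42 for HNF4A, -1.34 to 0.16 for ONECUT1 and -1.36 to 0.98 for PROX1. HNF4G ranged from -5.09 to 0.55 in foregut against endoderm, and PROX1 from -0.72 to 1.30 in foregut against hESC. A fit that leaves 1 library in a group assumes that it varies like the other group.

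Shares of nuclei with a UMI moved with depth. At 2500 UMIs per nucleus they were 0.695% for FOXA1, 7.86% for FOXA2, 2.33% for HNF4G, 0.846% for ONECUT1 and 8.71% for PROX1. Without thinning they were 5.47, 22.7, 11, 4.73 and 35.6%. With at most 15% mitochondrial UMIs they were 1.02% for FOXA1, 7.90% for FOXA2, 5.55% for HNF4G and 13.1% for PROX1. Foregut groups of 2 libraries and counts under 1 CPM limit what can be shown for HNF4G, ONECUT1 and PROX1.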
